A study of Mus musculus with 4 samples.

Results

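The genes described here are 49 mouse autosomal genes that are known to be imprinted, listed by name from 17 loci. The list uses no threshold on the values, though it was drawn up with earlier results of these data known. All 49 had a row among the 33708 rows of the table, and 21 of them lie on chromosome 7, which holds the Snrpn, H19-Igf2, Kcnq1 and Peg3 clusters and Inpp5f. From earlier knowledge 24 are expressed from the paternal allele and 24 from the maternal allele, and Gnas makes transcripts of both kinds. For 16 members imprinting is known in a restricted setting such as placenta, brain or an isoform. RNA was sequenced from the frontonasal prominence (FNP), the embryonic swelling that forms the forehead and nose, of 4 FVB/NJ embryos at E10.5 with 29 somite pairs. The 2 MD43 embryos were homozygous for MommeD43, an ENU-induced missense allele of Smchd1 that lies in the extended ATPase domain of the protein, and the 2 WT embryos carried no such allele. Both MD43 embryos were male, while WT replicate 1 was female and WT replicate 2 male. The embryos of replicate 2 shared a mother across genotypes and those of replicate 1 had mothers of their own. The genotypes of the mothers are not given in the sources used here.

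Imprinted genes are expressed mainly from the allele of 1 parent, according to DNA methylation marks that were set in the egg or sperm and are kept in the embryo at imprinting control regions. In several clusters the unmethylated control region is the promoter of a long non-coding RNA, and the allele that makes the RNA keeps its neighbours silent. SMCHD1 is a chromatin repressor of the SMC family that is known for silencing the inactive X chromosome and some imprinted clusters, so the loci allow the question of whether the MD43 allele altered the dosage of imprinted genes. The table held no allele counts, and dosage is the sum of both alleles.

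The sequences just before the start sites of a few members are shown because these are the kind of region in which an imprint sits: the promoters of Kcnq1ot1 and Airn, the long non-coding RNAs of the Kcnq1 and Igf2r clusters, of Igf2r, which Airn opposes, of Mest, whose promoter lies in a region methylated on the maternal allele, of Meg3, and of Slc22a18, which differed most between genotypes among members with enough reads. They were taken from RefSeq (GRCm38.p6, the C57BL/6J reference and not FVB/NJ) and cut to the stretch outside the gene's annotated exons. Capitals mark CG, the dinucleotide in which cytosine can be methylated.
Kcnq1ot1: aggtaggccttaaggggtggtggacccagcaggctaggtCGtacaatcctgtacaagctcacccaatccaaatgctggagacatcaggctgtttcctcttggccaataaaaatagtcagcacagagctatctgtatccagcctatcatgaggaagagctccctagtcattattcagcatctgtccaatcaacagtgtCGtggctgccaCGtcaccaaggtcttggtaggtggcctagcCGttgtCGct
Slc22a18: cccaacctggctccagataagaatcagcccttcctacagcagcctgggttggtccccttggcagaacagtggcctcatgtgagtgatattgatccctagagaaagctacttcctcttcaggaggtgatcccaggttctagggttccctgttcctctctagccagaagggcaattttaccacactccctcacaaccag
Airn: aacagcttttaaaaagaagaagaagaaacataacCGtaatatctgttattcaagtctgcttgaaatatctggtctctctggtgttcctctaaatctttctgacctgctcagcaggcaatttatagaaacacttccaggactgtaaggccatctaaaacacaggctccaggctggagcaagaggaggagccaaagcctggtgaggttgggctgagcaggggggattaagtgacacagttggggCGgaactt
Igf2r: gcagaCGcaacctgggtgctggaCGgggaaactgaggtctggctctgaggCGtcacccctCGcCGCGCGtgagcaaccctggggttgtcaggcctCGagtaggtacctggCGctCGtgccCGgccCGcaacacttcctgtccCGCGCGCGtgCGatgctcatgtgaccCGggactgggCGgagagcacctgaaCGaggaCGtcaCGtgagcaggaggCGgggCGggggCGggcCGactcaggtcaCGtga
Mest: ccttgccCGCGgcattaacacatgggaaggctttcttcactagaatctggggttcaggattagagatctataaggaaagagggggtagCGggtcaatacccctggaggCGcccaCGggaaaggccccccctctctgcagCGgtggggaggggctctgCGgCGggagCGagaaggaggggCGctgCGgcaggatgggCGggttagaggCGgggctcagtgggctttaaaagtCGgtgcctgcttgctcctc
Meg3: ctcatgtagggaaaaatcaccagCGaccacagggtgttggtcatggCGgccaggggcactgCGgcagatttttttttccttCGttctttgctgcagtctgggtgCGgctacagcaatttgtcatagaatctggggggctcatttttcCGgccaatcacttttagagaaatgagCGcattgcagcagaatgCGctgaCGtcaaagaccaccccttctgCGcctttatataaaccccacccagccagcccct

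The Kcnq1ot1 stretch (chr7:143296550-143296797, minus strand) had 5 CG in 248 bases, and that of Airn (chr17:12741061-12741310, plus strand) had 2 in 250. The Igf2r stretch (chr17:12769707-12769956, minus strand) had 27 CG in 250 bases, Mest (chr6:30737800-30738049, plus strand) 14 and Meg3 (chr12:109540746-109540995, plus strand) 10. The Slc22a18 stretch (chr7:143473539-143473735, plus strand) had 0 CG in 197 bases. Windows of 250 bases before to 50 after the start were at hand for 38 of the 49 members (55 windows, since some genes have several starts), with a median of 15 CG a window against 7 over all 32851 windows. The hexamer TGCCGC, the core of the letters bound by the imprint-keeping protein ZFP57, was searched on both strands and itself holds a CG that was counted above. It was in 13 of the 55 windows (23.6%) and in 11.6% of all windows, 2 shares that were not matched for CG content. These 13 windows belonged to 12 members, namely Zdbf2, Nnat, Mest, Copg2, Zim1, Snrpn, Igf2, Plagl1, Grb10, Commd1, Meg3 and Slc22a2. In the printed stretches it stood 2 times in Mest and 1 time in Meg3. Methylation itself was not measured.

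The table gave 1 value a genotype, in which the authors merged 2 libraries, as log2 RPKM (reads scaled to exon length and library size, on a log2 scale). The implied depth was 22328791 reads a library in MD43 and 16055882 in WT. No value of a single embryo can therefore be given, no spread between embryos could be computed, and no difference below was tested. Reads are given as the geometric mean of the 2 libraries, recovered from the table, and each difference (MD43 minus WT, log2) carries the smallest counting error its reads allow, which leaves out variation between embryos. Where reads fixed the counts of both libraries of a gene, the larger was a median of 1.53 times the smaller in MD43 (75 genes) and 1.41 times in WT (102 genes), before any scaling for depth. Smchd1 itself was at 3.30 log2 RPKM in MD43 (4390 reads) and 3.31 in WT (3185 reads), a difference of -0.01 ± 0.02.

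The FNP made a large amount of RNA from a few imprinted genes. Of the 49 members, 40 had at least 10 reads in a genotype, and these 40 are the ones counted below. In WT, 12 of them were at 5 log2 RPKM or more. Mest, an alpha/beta hydrolase made in embryonic mesoderm, was the most abundant at 8.95 log2 RPKM in WT and 8.80 in MD43. Next came H19, the long non-coding RNA beside Igf2, at 8.84 and 8.77, and Nnat, a small membrane protein of the developing brain, at 8.72 and 8.58. Copg2, a subunit of the COPI vesicle coat, was at 7.29 in WT and 7.07 in MD43, and Grb10, an adaptor that restrains growth signalling, at 7.23 and 7.31. The exons of Copg2 share 912 bases with those of Mest on the other strand. Reads of Mest could therefore have been counted for Copg2. The members took up 0.997% of the reads in MD43 and 1.05% in WT, so their summed dosage was close in the 2 genotypes.

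**Figure D1:**
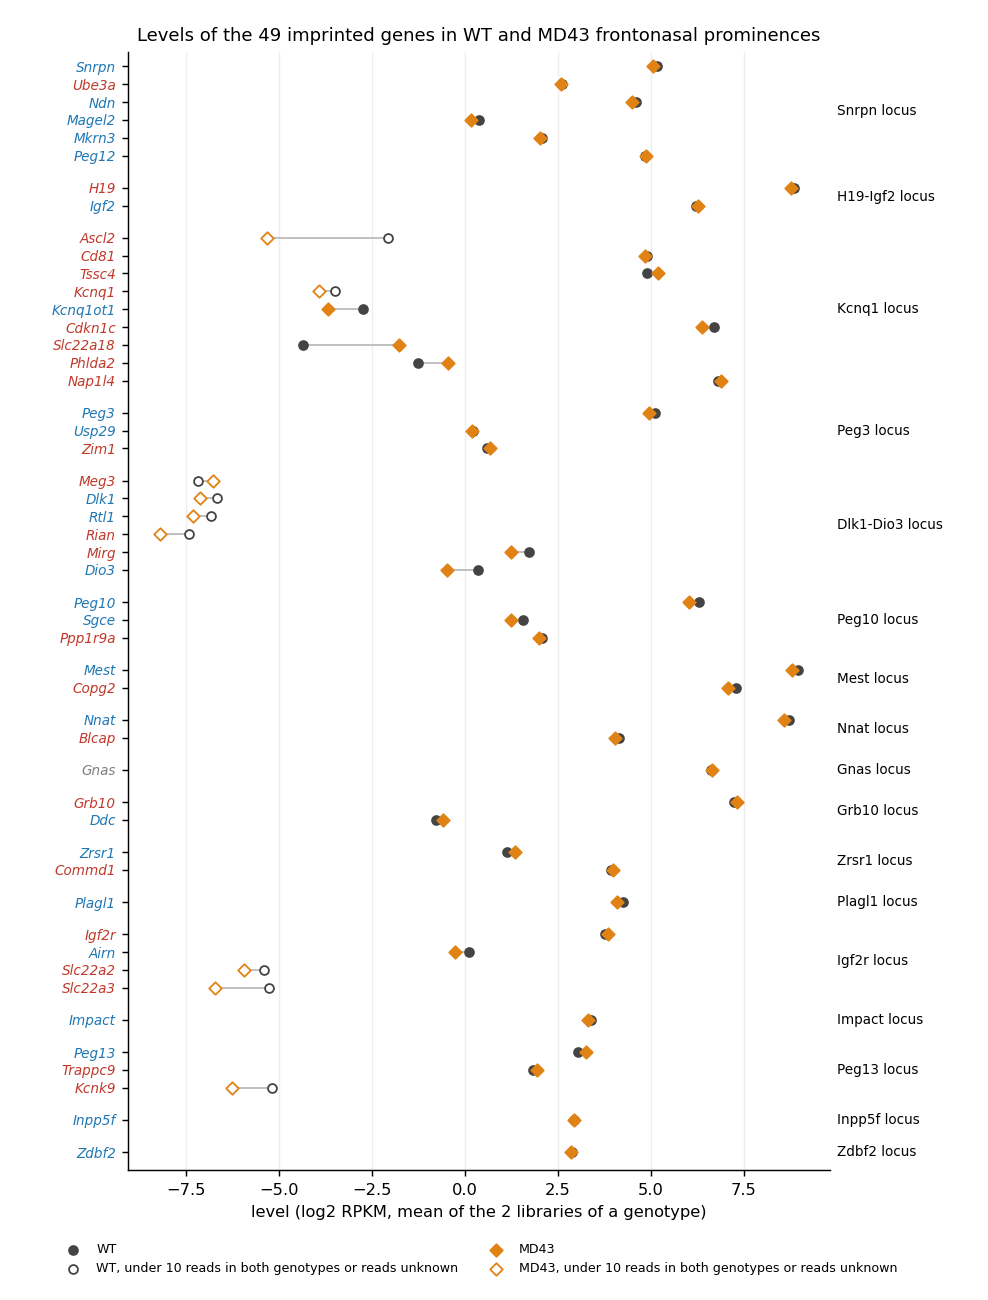
Level of each of the 49 imprinted genes (x axis, log2 RPKM) in WT (circles) and MD43 (diamonds), grouped by locus, with open symbols where neither genotype had 10 reads or the reads were unknown. Gene names are blue for paternally and red for maternally expressed genes, a grey line joins the 2 genotypes of a gene, and most pairs of filled symbols touch, with Slc22a18 the pair farthest apart.

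At 2-fold, 1 of the 40 members was past the threshold. It was Slc22a18, higher in MD43, while no member was lower by that much, against 4.11% of the 15377 genes of the table that passed the same filter (1.64% higher and 2.47% lower). Slc22a18 passed the filter through MD43, where it was high, with 11.2 reads against 1.34 in WT. At 1.5-fold there were 4 members, against 10.7% of all genes (4.24% higher and 6.43% lower). Slc22a18 and Phlda2 were higher in MD43, and Kcnq1ot1 and Dio3 were lower. Phlda2 too passed the filter through MD43 alone, with 18.3 reads against 7.55. All 4 belong to the Kcnq1 and Dlk1-Dio3 domains. Of the 34 members with at least 100 reads in both genotypes, 1 was past 1.5-fold (Kcnq1ot1) and 0 were past 2-fold, against 2.35% and 0.437% of all such genes. The shares of members are thus near those of all genes.

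**Figure D2:**
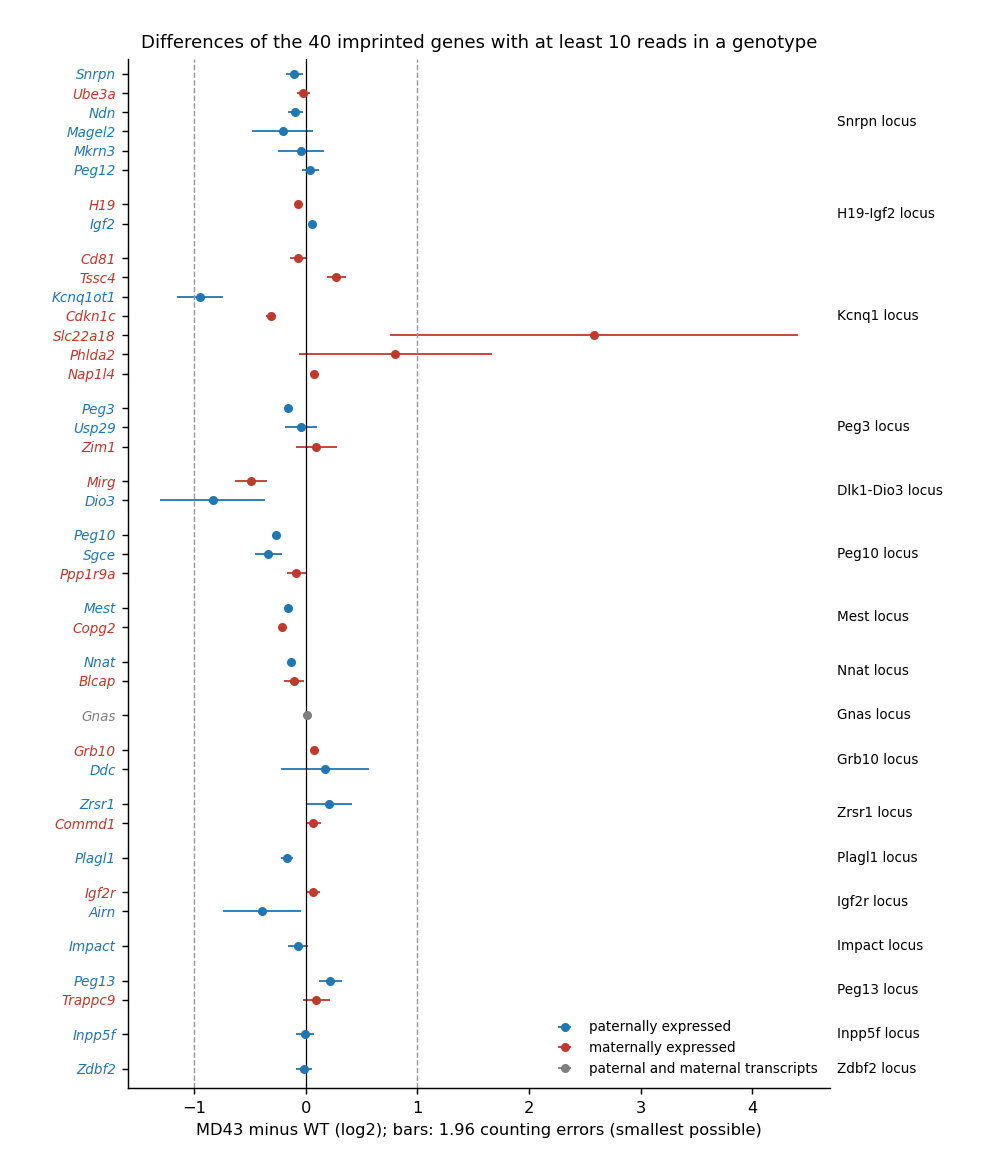
Difference between genotypes (x axis, MD43 minus WT, log2) for the 40 imprinted genes that passed the filter of 10 reads, blue for paternally and red for maternally expressed genes. Bars are 1.96 times the smallest counting error and leave out variation between embryos, dashed lines mark 2-fold, and Slc22a18 at 2.58 is the point outside them.

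Most members differed little in dosage. The difference was within 0.1 in 19 of the 40 (47.5%, against 34.8% of all genes) and within 0.25 in 30 (75%, against 67.3%). The median difference of the members was -0.05 (25 lower and 15 higher in MD43), beside 0.01 over all genes. Counting error alone does not cover all of these differences: 26 of 40 members (65%) differed by more than 1.96 counting errors, against 50.4% of all genes. These shares depend on read number. With at least 100 reads in both genotypes, 55.9% of 34 members were within 0.1, against 43.1% of all such genes. Within 0.25 were 82.4% against 80.7%, and past 1.96 counting errors 67.6% against 57.3%.

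**Figure D3:**
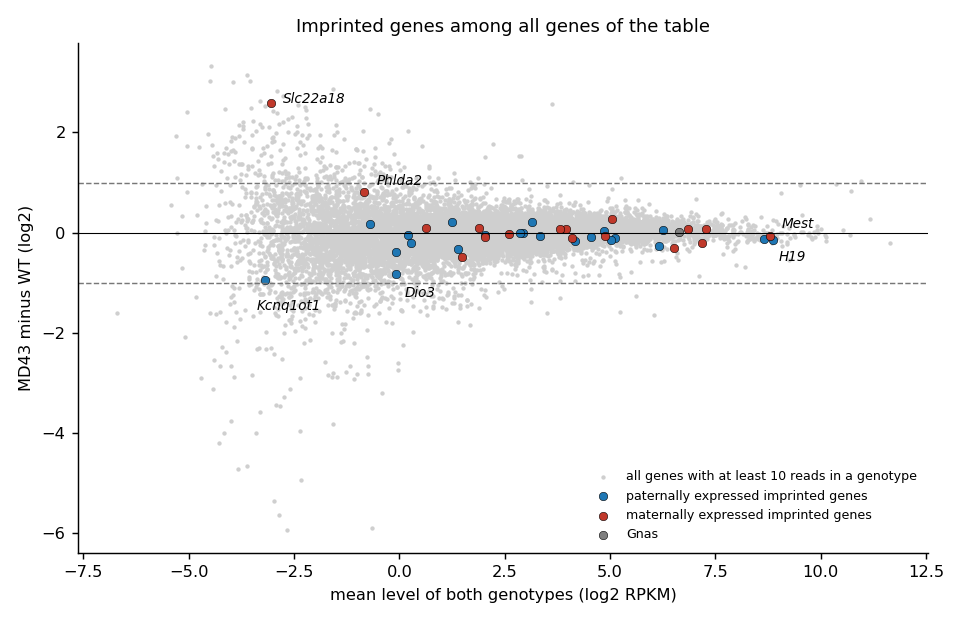
Difference between genotypes (y axis, MD43 minus WT, log2) against the mean level of both genotypes (x axis, log2 RPKM) for all 15377 genes past the filter of 10 reads (grey) and the 40 imprinted genes (blue paternal, red maternal, dark grey Gnas). The imprinted genes lie inside the cloud of all genes, which widens at low levels, where Slc22a18, Kcnq1ot1, Phlda2 and Dio3 are found.

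Paternally and maternally expressed members had medians of opposite sign, both close to 0. The 22 paternally expressed members with enough reads had a median difference of -0.10, with 17 lower and 5 higher in MD43. The 17 maternally expressed members had a median of 0.07, with 8 lower and 9 higher. This maternal median depended on members with few reads, and it was -0.02 once members under 100 reads in either genotype were left out. Since a changed imprint can move neighbours that are expressed from opposite alleles in opposite directions, 14 pairs of such neighbours at 12 loci were set side by side, of which 3 share Kcnq1ot1. The paternally expressed gene was lower relative to its partner in MD43 in 9 pairs and higher in 5, and 8 of the 14 pairs exceeded 1.96 counting errors. In most pairs the imprinting of a partner is known in another tissue and not in the FNP. In the 6 pairs without such a partner, the paternally expressed gene was relatively lower in 5 and higher in 1, and 2 of these 6 share Kcnq1ot1.

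The Kcnq1 domain on chromosome 7 held the members with the largest differences. Kcnq1ot1 (ENSMUSG00000101609), the paternally expressed antisense RNA whose promoter is printed above, starts inside Kcnq1 (chr7:143203458-143296549, minus strand) and is known to silence genes on both sides of it. Kcnq1ot1 was at -3.67 log2 RPKM in MD43 (163 reads) and -2.73 in WT (226 reads), a difference of -0.95 ± 0.10, or 1.93-fold lower. Its level per length is low since the annotation counts the whole 93.1 kb as exon, and 121 of these bases overlap an exon of Kcnq1 on the other strand. With 0.1 RPKM added to each value the difference was -0.49, and with 1 RPKM it was -0.09. Its levels were 0.0784 RPKM in MD43 and 0.151 in WT, so additions of this size shrink the difference by arithmetic alone.

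On the side of higher coordinates from Kcnq1ot1, maternally expressed genes did not share a direction. Cdkn1c (chr7:143458339-143461050), an inhibitor of the cell cycle whose start lies 164.5 kb from that of Kcnq1ot1, was at 6.37 log2 RPKM in MD43 (3768 reads) and 6.68 in WT (3366 reads). Its difference was -0.31 ± 0.02, in the same direction as that of Kcnq1ot1. Of its exon bases, 30.7% also belong to Gm44732 on the other strand, and use of the strand in counting is not given in the sources used here. Gnas and Gm20721, which share 1469 exon bases on opposite strands, had nearly equal reads, 24780 and 24630 in MD43 and 17650 and 17565 in WT. Whether reads of shared bases were counted for both genes was not tested. Slc22a18 (chr7:143473736-143499334), an organic cation transporter, was at -1.76 log2 RPKM in MD43 and -4.35 in WT. The MD43 libraries held 5 and 25 or 1 and 125 reads of it, and the WT libraries 0 and 2 reads. The merged levels were 5.99-fold apart, while for 30 against 2 reads the ratio scaled to depth was 10.8. This ratio takes the split of 5 and 25, belongs to the member picked for the largest difference, and was not tested. The 2 MD43 libraries themselves differed at least 5-fold before scaling. With 1 RPKM added, above its levels of 0.295 RPKM in MD43 and 0.0492 in WT, the difference of Slc22a18 was 0.30.

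Phlda2 (chr7:143501545-143503150), a growth-restraining gene known from placenta, was at -0.45 log2 RPKM in MD43 (18.3 reads) and -1.25 in WT (7.55 reads). Its difference was 0.80 ± 0.44, and 1.96 counting errors cover it. The WT libraries held 3 and 19 or 1 and 57 reads of Phlda2, so they differed from each other, before scaling for depth, by more than the genotypes did. Nap1l4, a histone chaperone at the end of the domain, was at 6.88 in MD43 and 6.81 in WT, a difference of 0.07 ± 0.02. The abundant genes on this side, Cdkn1c and Nap1l4, therefore differed by less than 1.5-fold, and the 2 members that were higher by more than that had few reads.

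On the side of lower coordinates, Tssc4 (chr7:143069249-143071093), which helps to assemble a spliceosome particle, was at 5.18 in MD43 (1494 reads) and 4.91 in WT (888 reads), a difference of 0.28 ± 0.04. Of its exon bases, 11.9% overlap Trpm5 on the other strand. Cd81, a tetraspanin of the cell surface, was at 4.84 and 4.91, a difference of -0.07 ± 0.04. Kcnq1, the potassium channel within which the antisense RNA starts, had a geometric mean of 6.0 reads in MD43 and 5.83 in WT. The WT libraries held 2 and 17 or 1 and 34 reads of it. Ascl2, a transcription factor of trophoblast, had no read in the MD43 libraries and 3 and 13 or 1 and 39 reads in WT. It did not pass the filter on reads. With the MD43 libraries set to 3 reads each and the WT value taken as exact, Ascl2 was 2.89-fold lower in MD43. This figure is no lower bound, since it leaves out the counting error of WT and the spread between its libraries. Both genes thus had few reads, in WT libraries that were unequal.

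Set against its partners, the level of Kcnq1ot1 minus that of Cdkn1c was -9.41 in WT and -10.04 in MD43 (log2 RPKM). The difference of Kcnq1ot1 between genotypes minus that of Cdkn1c was -0.63 (counting error 0.11), and it was -1.02 against Nap1l4 (0.11) and -1.75 against Phlda2 (0.45). The median difference over the 7 members of the domain with enough reads was 0.07, with 4 higher and 3 lower, and their summed RPKM was 267 in MD43 and 276 in WT.

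**Figure D4:**
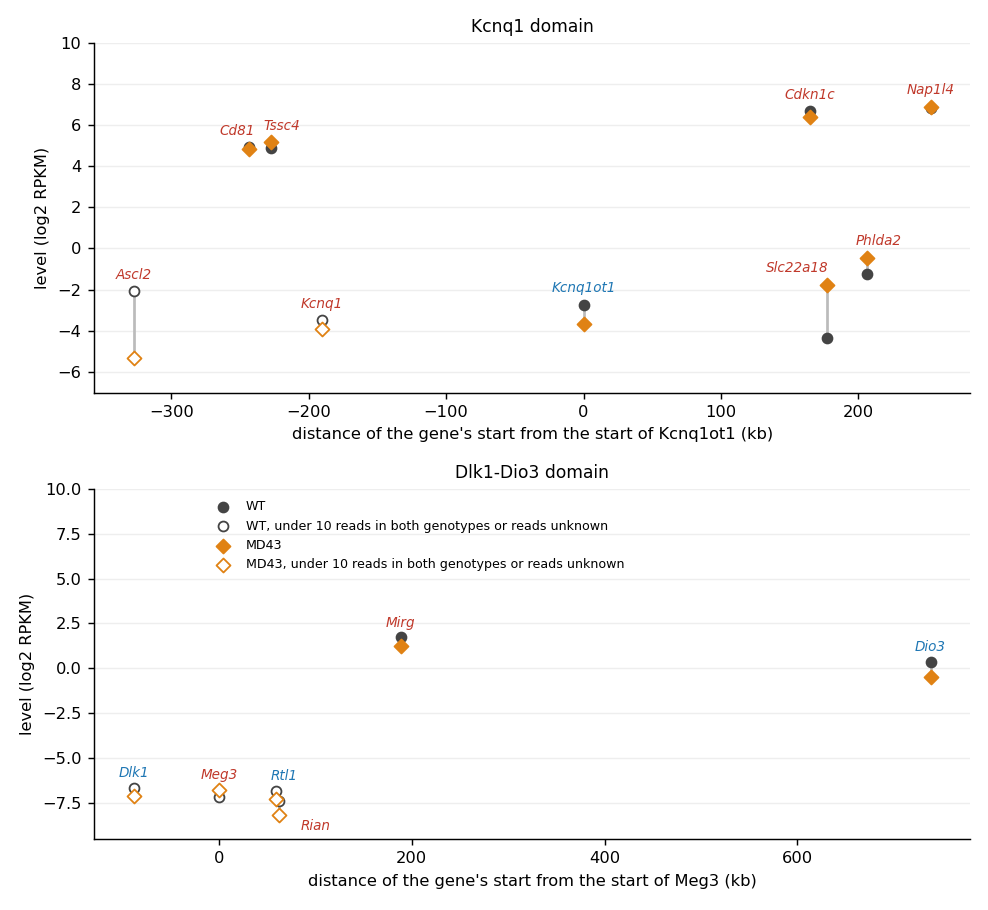
Levels (y axis, log2 RPKM) in WT (circles) and MD43 (diamonds) along the Kcnq1 and Dlk1-Dio3 domains, by the distance of each gene's start from that of Kcnq1ot1 or Meg3 (x axis, kb), with open symbols where neither genotype had 10 reads or the reads were unknown. Names are blue for paternally and red for maternally expressed genes, Kcnq1ot1, Mirg and Dio3 lie lower in MD43, Slc22a18 and Phlda2 lie higher, and the values of genes without a read stand at the level given to an empty library.

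In the Dlk1-Dio3 domain on chromosome 12, both members with enough reads were lower in MD43. Mirg (chr12:109729764-109749460), the maternally expressed non-coding RNA whose span holds 14 RefSeq microRNA hairpins, was at 1.23 log2 RPKM in MD43 (382 reads) and 1.72 in WT (386 reads), a difference of -0.49 ± 0.07. Dio3 (chr12:110279068-110281097), the paternally expressed deiodinase that inactivates thyroid hormone, was at -0.49 in MD43 (32.2 reads) and 0.34 in WT (41.3 reads), a difference of -0.83 ± 0.24, or 1.78-fold lower. At their most even, the reads of Dio3 were 26 and 40 in the MD43 libraries and 31 and 55 in the WT libraries. The 2 genes are expressed from opposite alleles and differed in the same direction, and the difference of Dio3 minus that of Mirg was -0.34 (counting error 0.25). Dio3os, a non-coding RNA that starts beside Dio3 on the other strand and is no member, was at -2.28 in MD43 (7.75 reads) and -0.45 in WT (19.7 reads), a difference of -1.83 ± 0.43.

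The other 4 members of this domain were near or at the limit of detection in both genotypes. Meg3, the maternally expressed non-coding RNA at the head of the domain, had 0 and 15 reads in the MD43 libraries and 1 and 4 or 2 and 2 reads in WT. Dlk1, a membrane protein of the Notch ligand family, and Rtl1, a gene derived from a retrotransposon, were listed without a read in any of the 4 libraries. For Dlk1, 3 reads a library would have given 0.0238 RPKM in MD43 and 0.0330 in WT. Rian could not be matched to the annotation, and its values of -8.19 in MD43 and -7.42 in WT amount to at most 4.44 and 5.43 reads. Of 75 ribosomal protein genes, picked by the form of their names, 2 were also listed without a read. Counting these 2, 3 had under 10 reads in both genotypes. Whether every cell uses these 3 was not checked, so they do not show whether a gene listed without a read is silent in this tissue.

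At the Igf2r locus on chromosome 17, the antisense RNA and its target differed in opposite directions by small amounts. Airn (chr17:12741311-12860136), whose paternal transcript is known to silence Igf2r, was at -0.27 log2 RPKM in MD43 (66.4 reads) and 0.12 in WT (62.6 reads), a difference of -0.39 ± 0.18. Its most even read pairs were 63 and 70 in MD43 and 56 and 70 in WT. Igf2r (chr17:12682406-12769664), the receptor that clears IGF2, was at 3.83 in MD43 (2966 reads) and 3.77 in WT (2034 reads), a difference of 0.07 ± 0.03. The difference of Airn minus that of Igf2r was -0.46 (counting error 0.18). The transporters Slc22a2 and Slc22a3, imprinted in placenta, had at most 1 read a library in MD43 and at most 4 in WT.

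At the H19-Igf2 locus the levels were nearly the same in both genotypes. H19 (chr7:142575529-142578143) was at 8.77 log2 RPKM in MD43 (24014 reads) and 8.84 in WT (18071 reads), a difference of -0.07 ± 0.01. Igf2 (chr7:142650766-142666816), the fetal growth factor, was at 6.28 in MD43 (9921 reads) and 6.22 in WT (6860 reads), a difference of 0.06 ± 0.02. The level of Igf2 minus that of H19 was -2.62 in WT and -2.49 in MD43. The annotation places 64.5% of the exon bases of Igf2 also in other genes, chiefly in Gm49394 on the same strand. Gm49394 had 9516 reads in MD43 and 6623 in WT, nearly as many as Igf2. Whether reads of shared bases were counted for both genes or split between them was not tested.

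In the Snrpn cluster, the mouse counterpart of the Prader-Willi and Angelman region, the 6 members had a median difference of -0.07 and ranged from -0.21 to 0.04. Snrpn, a protein of the spliceosome, was at 5.07 log2 RPKM in MD43 and 5.17 in WT, a difference of -0.10 ± 0.04, while its maternally expressed partner Ube3a, a ubiquitin ligase, differed by -0.02 ± 0.03. Ndn, which restrains the cell cycle in neurons, was at 4.50 and 4.59, a difference of -0.09 ± 0.04. Magel2 (chr7:62377010-62381640), a partner of ubiquitin ligases, was at 0.18 in MD43 (117 reads) and 0.38 in WT (97.0 reads), and its difference of -0.21 ± 0.14 was within 1.96 counting errors, as were those of Mkrn3 (-0.04 ± 0.10) and Peg12 (0.04 ± 0.04). The 7 other genes of this cluster with enough reads within 250 kb of a member ranged from -0.63 to 0.21, with 3 higher and 4 lower. Snhg14, whose exons overlap those of Ube3a on the other strand, differed by -0.43 ± 0.05 (897 reads in MD43 and 869 in WT). Snurf, whose exons overlap those of Snrpn, differed by 0.21 ± 0.09. In the Peg3 cluster, the zinc finger gene Peg3 (chr7:6703892-6730431) was at 4.94 in MD43 (9158 reads) and 5.10 in WT (7329 reads), a difference of -0.15 ± 0.02. Its maternally expressed neighbour Zim1 (chr7:6671269-6696450) was at 0.68 (289 reads) and 0.58 (195 reads), a difference of 0.09 ± 0.09, and Usp29, a deubiquitinase that starts beside Peg3, differed by -0.04 ± 0.07.

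On chromosome 6, all 5 members were lower in MD43. Peg10 (chr6:4747306-4760517), a retrotransposon-derived gene needed in placenta, was at 6.03 log2 RPKM in MD43 (9711 reads) and 6.29 in WT (8403 reads), a difference of -0.27 ± 0.02. Sgce (chr6:4674350-4747207), which encodes a sarcoglycan and starts head to head with Peg10, was at 1.23 in MD43 (556 reads) and 1.57 in WT (504 reads), a difference of -0.33 ± 0.06. These 2 paternally expressed genes were lower by similar amounts, while Ppp1r9a beside them differed by -0.08 ± 0.04. The 7 other genes with enough reads within 250 kb of these members ranged from -0.50 to 2.54, with 5 higher and 2 lower. Among them are imprinted genes of the further list below. Asb4 was lower by more than Peg10 or Sgce, at -0.50 ± 0.07 (477 reads in MD43 and 485 in WT). Casd1 was higher, at 0.21 ± 0.04. Mest (chr6:30723547-30748465) counted 39248 reads in MD43, 31427 in WT and a difference of -0.16 ± 0.01, and Copg2 (chr6:30747554-30896794), on the other strand, had 15382 and 12827 reads and a difference of -0.21 ± 0.01. The exons of Mest and Copg2 share 912 bases, so neither can be read apart from the other without strand. After subtracting a fit on GC content and length, the difference of Sgce was -0.20, that of Peg10 -0.22, that of Copg2 -0.14 and that of Mest -0.12.

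At the Nnat locus on chromosome 2, Nnat (chr2:157560078-157562522) was at 8.58 log2 RPKM in MD43 (15676 reads) and 8.72 in WT (12388 reads), a difference of -0.14 ± 0.01. Blcap, within whose intron Nnat lies, differed by -0.11 ± 0.05. Gnas, which encodes the stimulatory G protein and further imprinted products, was at 6.63 and 6.62, a difference of 0.01 ± 0.01, though its row merges transcripts of both parental alleles. At the Grb10 locus on chromosome 11, Grb10 (chr11:11930508-12038683) counted 32107 reads in MD43, 21956 in WT and a difference of 0.07 ± 0.01. Ddc (chr11:11814101-11898144), which makes dopamine and serotonin and is imprinted in heart, was at -0.60 in MD43 (65.7 reads) and -0.78 in WT (41.8 reads), a difference of 0.18 ± 0.20. On the same chromosome, Zrsr1 (chr11:22972005-22976496), a splicing factor gene that lies in an intron of Commd1, was at 1.35 in MD43 (255 reads) and 1.13 in WT (158 reads), a difference of 0.21 ± 0.10. Commd1, which acts in copper and protein sorting, differed by 0.07 ± 0.03, and its exons share 412 bases with Zrsr1 on the other strand.

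At the Peg13 locus on chromosome 15, Peg13 (chr15:72805600-72810324), a paternally expressed non-coding RNA inside Trappc9, was at 3.26 log2 RPKM in MD43 (1009 reads) and 3.04 in WT (623 reads), a difference of 0.22 ± 0.05. Trappc9 (chr15:72589620-73061204), which acts in vesicle traffic, was at 1.93 (677 reads) and 1.84 (455 reads), a difference of 0.10 ± 0.06. Kcnk9, a potassium channel imprinted in brain, had 0 and 14 reads in the MD43 libraries and at its most even 5 and 6 in WT. Plagl1, a zinc finger gene that restrains growth, was at 4.08 in MD43 (2957 reads) and 4.25 in WT (2388 reads), a difference of -0.17 ± 0.03. The remaining members each stand alone at their locus. Impact, a regulator of translation, differed by -0.07 ± 0.05, Inpp5f, a phosphoinositide phosphatase, by -0.01 ± 0.04, and Zdbf2, a paternally expressed gene of chromosome 1, by -0.02 ± 0.03.

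Grouped by kind of transcript, 4 of the 5 non-coding members with enough reads were lower in MD43 (Kcnq1ot1, Mirg, Airn and H19) and 1 was higher (Peg13), with a median of -0.39, a grouping chosen after the values were seen. The 12 counted members whose imprinting is known in a restricted setting had a median of 0.00, and the 28 others a median of -0.08.

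A further list held 32 imprinted genes outside the 49. Of the 31 found, 25 had enough reads, with a median difference of -0.07. Their differences were within 0.1 in 12% and within 0.25 in 52%, against 47.5% and 75% of the members. Past 2-fold was 1 of the 25, against 4.11% of all genes. This was Th, the rate-limiting enzyme of dopamine synthesis beside Igf2, at -0.73 log2 RPKM in MD43 (31.8 reads) and 0.83 in WT (67.6 reads), a difference of -1.56 ± 0.22. Among the 102 genes with enough reads within 250 kb of a member, the median was 0.01. Past 2-fold were 6 of them (5.88%, against 4.11% of all genes), 1 higher (1.64% of all genes) and 5 lower (2.47%), and 4 of the 6 had under 10 reads in the genotype where they were lower. They were Gm44424 (2.54 ± 0.93), Dio3os, Th, Fam161a (-1.38 ± 0.26), Cabyr (-1.19 ± 0.44) and Gm14286 (-1.16 ± 0.44). Of 13 factors that keep or read imprints, 11 had enough reads and 0 were past 2-fold, against 4.11% of all genes. Zfp57, which binds methylated control regions, was at 3.68 in MD43 and 4.04 in WT, a difference of -0.36 ± 0.04. Dnmt3b, a de novo methyltransferase, was at 3.81 and 3.35, a difference of 0.45 ± 0.04, and Lrif1, a partner of SMCHD1, at 0.30 and 0.90, a difference of -0.59 ± 0.09. Dnmt1, which copies methylation at replication, differed by 0.19 ± 0.02 and Trim28, the corepressor that ZFP57 recruits, by 0.20 ± 0.01.

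Summed marker RNA of some cell types also differed between the merged values of the genotypes, which was not tested, and in bulk RNA fewer cells of a type cannot be told apart from less RNA per cell. All 5 red blood cell markers found were higher in MD43 (median 0.84, summed RPKM 5810 in MD43 and 3056 in WT). The embryonic globin Hbb-bh1 was past 2-fold, at 11.47 log2 RPKM in MD43 and 10.43 in WT, a difference of 1.04 ± 0.01. Likewise, all 6 surface ectoderm markers were higher (median 0.66, 175 and 111 RPKM). Of 7 forebrain markers, 6 were lower (median -0.28, 193 and 231 RPKM), with Rax at -2.17 ± 0.24. The 9 facial mesenchyme markers, which define this tissue, were all present (162 and 165 RPKM, median -0.17), while endothelial (median -0.08), macrophage (median -0.30) and young neuron markers (median -0.02) were all below 0 in the median. No defining marker that was found was listed without a read. The part of these shifts, of the sex of the embryos and of their mothers in the differences of the imprinted genes was not tested.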

How the data were processed

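FNP RNA of 2 WT and 2 MD43 embryos was sequenced from 100 ng of total RNA with a stranded mRNA kit. The authors trimmed the reads with Trim Galore 0.4.4, mapped them with HISAT2 2.0.5 to GRCm38.p6 and quantified them in SeqMonk. The deposited values are log2 RPKM, which the authors scaled to library size and corrected for length, with 1 column a genotype. Further columns hold the authors' own fold change, mean and FDR, and these were not used. Groups came from the sample labels.

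The test had been planned on counts per library. The table holds none, so no test, SD or p-value was computed, and a call is a difference of at least 2-fold where a genotype had 10 reads or more. Of the 33708 rows, 33101 matched GENCODE M21 on symbol and position, and 48 of the 49 members were among them. A genotype's value was taken as the mean log2 RPKM of its 2 libraries, a library without a read counting as 0.9 reads, which gave the product of their reads. Of the products under 1000, 99.9% in each genotype were those of whole reads (tolerance 0.001), and products under 20000 were split into the possible pairs. The steps were tested on simulated data. Promoter windows and hairpins are RefSeq (GRCm38.p6), and GC content came from the longest GENCODE M21 transcript of a gene. Python 3.11.15, numpy 2.4.6, pandas 2.3.3 and scipy 1.17.1 were used.

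The members, lists, pairs and thresholds were chosen with earlier results of these data known. All members are named, and reads with both levels are given for the 15 with the largest difference and at least 10 reads, the 5 most abundant, and both sides of loci with an opposing non-coding RNA, while genes of the lists or within 250 kb are named where past 2-fold, or as examples. The alternatives tried were another fold, filters on reads, pseudocounts, centrings, a correction for GC content and length, and leaving out members with shared exons or restricted imprinting.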

Additional observations from a re-analysis of the deposited data

How the results depend on the processing

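No paired analysis was possible because both libraries of a genotype were merged into 1 value. For the same reason leaving out a library and the edgeR and DESeq2 tests were not run, and no result here has a check against the spread between embryos. The count of members at least 2-fold higher in MD43 was 1. It was 0 with 1 RPKM added, 0 with at least 50 reads in a genotype, 0 with at least 100 reads in both genotypes, and 2 at 1.5-fold. The count at least 2-fold lower was 0. It was 3 without a filter on reads (Ascl2, Slc22a3 and Kcnk9, each under 10 reads) and 2 at 1.5-fold. Centring on the median of all genes, or leaving out members whose exons overlap another gene, moved neither count. The median of the maternally expressed members was 0.0687 and turned to -0.0686 without a filter, to -0.0216 with at least 50 reads in a genotype and to -0.0216 with at least 100 reads in both. The medians of all members and of the paternally expressed members stayed below 0 under each alternative run, but after correction for GC content and length they moved from -0.0547 to -0.0177 and from -0.0969 to -0.0376. Of 125 alternatives of 24 named members and Smchd1, 113 stayed within 1.96 counting errors of the value given and 12 moved further. The sign of 1 gene turned, that of Smchd1, which was 0.08 after correction for GC content and length. That correction, which explains 1.39% of the variance of the difference over all genes, moved Nnat to -0.18 and Grb10 to 0.11. Few reads limit what can be said of Slc22a18, Phlda2, Ascl2, Kcnq1, Meg3 and Kcnk9. The same holds for Dlk1, Rtl1, Slc22a2 and Slc22a3, which had 0 to 4 reads a library. Whether depth set these low counts was not tested.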
